A study of Homo sapiens with 12 samples.

Results

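The Krüppel-like factors (KLFs) are zinc-finger transcription factors, and 10 of their genes (KLF2, KLF3, KLF4, KLF5, KLF6, KLF7, KLF9, KLF10, KLF11 and KLF13) were followed here, taken by gene name from a table of 57773 genes. All 10 had enough reads to be tested, as did 20571 genes in all. RNA was sequenced from MDA-MB-231, an established line of triple-negative breast cancer cells with a mesenchymal look, in 12 libraries. Cells received for 48 h TGFβ and alisertib together (libraries 10 to 12), TGFβ alone (libraries 4 to 6), alisertib alone (libraries 7 to 9) or were left untreated, with no time given in the labels (libraries 1 to 3). TGFβ, a secreted cytokine, acts on genes through the SMAD proteins, and alisertib blocks the kinase Aurora A, which cells need to build the mitotic spindle. The dose of either agent is not given in the sources used. Separate cultures for the 3 libraries of a group are not stated in the labels, and p-values then speak only of the spread between libraries, which may be technical.

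KLFs bind GC-rich and CACCC-type DNA through zinc fingers near their carboxyl end, and their other end decides which partner they bring to a gene. KLF3 binds the corepressor CtBP. KLF2, KLF4, KLF5, KLF6 and KLF7 mostly work with acetyltransferases, and KLF9, KLF10, KLF11 and KLF13 carry a short helix that binds the corepressor SIN3A. KLF10 and KLF11 were first described as TGFβ-inducible early genes, and several KLFs rise soon after a growth stimulus, so 48 h samples a late point of such a response.

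Library totals ran from 93701658 to 120619368 counts. VIM, CD44, EGFR, CAV1 and AXL, markers of this line, had 382 to 2133 CPM (counts brought to a common depth by TMM factors) in every library. The luminal markers ESR1, PGR and FOXA1 had at most 6 counts in a library, while the keratins KRT8 and KRT18 had 223 to 339 CPM and GATA3 3.35 to 7.58 CPM. Of leukocyte and endothelial markers, PTPRC had at most 18 counts, CD3E at most 4, LYZ at most 24, ITGAM at most 26, CDH5 and VWF at most 10, and CLDN5 none in any library. Others were detected at a low level, CD14 with 70 to 299 counts, KDR with 100 to 320 and TEK with 42 to 118, which is at most 3.19 CPM. Libraries 10, 6, 9 and 1, which are 1 of each group, stood apart: their deviations from their group means ran against gene GC content (Spearman's rho across genes -0.532, -0.487, -0.441 and -0.561), while rho was 0.105 to 0.517 in the other 8 libraries. Deviations from a group mean cancel within the group, so the positive rho of its other libraries follows in part from the negative one. Genes are not independent replicates, so these rho values are descriptions. In bulk RNA, fewer cells of a kind and less RNA per cell cannot be told apart.

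Promoter sequence was printed for KLF4, KLF7 and KLF13, 3 members with large differences between groups, and for KLF9, which ran the other way. Each entry of the RefSeq table (build GRCh38.p14) spans 250 bases before to 50 bases after a start site, and the table held 13 entries for 8 of the 10 members; KLF3 and KLF10 are named only. Sequences run 5′ to 3′ on the gene's strand, and capitals mark GC boxes (GGGCGG or CCGCCC) and SMAD boxes (CAGAC or GTCTG). KLF7 has 4 start sites in the table, of which 2 are shown. The KLF4 entry lies at chr9:107489720-107490019 (minus strand), the first KLF7 entry at chr2:207165899-207166198 (minus), another KLF7 entry at chr2:207166807-207167106 (minus), the KLF13 entry at chr15:31326585-31326884 (plus) and the KLF9 entry at chr9:70414608-70414907 (minus).
KLF4: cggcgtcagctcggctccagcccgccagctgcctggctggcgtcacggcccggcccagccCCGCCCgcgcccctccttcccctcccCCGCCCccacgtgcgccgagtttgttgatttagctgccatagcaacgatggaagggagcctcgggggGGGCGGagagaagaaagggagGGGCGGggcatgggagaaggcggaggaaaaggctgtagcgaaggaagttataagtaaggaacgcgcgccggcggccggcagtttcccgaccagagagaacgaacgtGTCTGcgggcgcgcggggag
KLF7, first entry: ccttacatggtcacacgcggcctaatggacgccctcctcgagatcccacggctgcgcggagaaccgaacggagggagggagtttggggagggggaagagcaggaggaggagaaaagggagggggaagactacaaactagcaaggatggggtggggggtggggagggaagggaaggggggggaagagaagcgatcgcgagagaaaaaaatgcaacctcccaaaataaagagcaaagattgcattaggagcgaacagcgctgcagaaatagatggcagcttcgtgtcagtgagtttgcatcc
KLF7, another entry: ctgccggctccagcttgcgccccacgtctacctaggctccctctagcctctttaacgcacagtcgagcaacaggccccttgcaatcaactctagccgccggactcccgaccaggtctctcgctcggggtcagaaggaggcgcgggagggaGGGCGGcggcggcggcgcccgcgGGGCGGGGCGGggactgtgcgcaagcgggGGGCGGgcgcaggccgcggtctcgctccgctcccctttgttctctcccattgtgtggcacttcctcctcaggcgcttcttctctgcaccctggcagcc
KLF13: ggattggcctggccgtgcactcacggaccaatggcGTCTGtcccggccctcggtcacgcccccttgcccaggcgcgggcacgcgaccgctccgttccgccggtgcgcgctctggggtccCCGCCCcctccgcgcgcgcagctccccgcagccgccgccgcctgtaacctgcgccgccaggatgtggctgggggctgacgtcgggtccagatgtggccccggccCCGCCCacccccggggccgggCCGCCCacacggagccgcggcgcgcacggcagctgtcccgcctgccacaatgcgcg
KLF9: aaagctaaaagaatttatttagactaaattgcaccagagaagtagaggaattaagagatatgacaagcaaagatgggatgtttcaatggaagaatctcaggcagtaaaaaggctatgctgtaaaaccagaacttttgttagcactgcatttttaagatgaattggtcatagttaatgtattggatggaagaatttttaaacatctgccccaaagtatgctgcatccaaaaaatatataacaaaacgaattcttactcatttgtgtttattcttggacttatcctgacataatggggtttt

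The KLF4 window held 4 GC boxes and 1 SMAD box, at 31 bases after the start site, and 69% of its bases were G or C. The KLF13 window held 3 GC boxes and 1 SMAD box, at -215 from the start site, with 78.3% G or C. The 2 KLF7 windows differed: the first held none of either motif, and the other held 4 GC boxes, 2 of them overlapping, and no SMAD box. Of the 2 KLF7 windows not shown, 1 (chr2:207134088-207134387) held a SMAD box at -142 and no GC box, and the other held neither. The KLF9 window held none of the motifs searched and 32.7% G or C, against a median of 58.7% over all promoters in the table. Over both strands, GC boxes were in 8 of the 13 entries of members and in 45.0% of all 35116 promoters. SMAD boxes were in 5 entries and 45.3% of all promoters, CACCC boxes (CACCC or GGGTG) in 7 entries and 59.9%, and the AP-1 site (TGACTCA or TGAGTCA) in 0 entries and 4.95%. A match describes the letters of a window and is not a binding site, and GC boxes, CACCC boxes and SMAD boxes are short enough to occur often by base composition.

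Measured per transcript length (RPKM), KLF6 and KLF10 were the most abundant members in every group and KLF2 the least. KLF6, an early-response factor that was described as an activator of TGFβ receptor genes, had 36.4 ± 1.01 RPKM with both agents, 33.8 ± 0.305 with TGFβ, 32.6 ± 0.512 with alisertib and 29.2 ± 0.507 in untreated cells (mean ± SD, n = 3 each). KLF10 had 31.8 ± 0.808 RPKM with both agents, 30.2 ± 0.285 with TGFβ, 16.6 ± 0.445 with alisertib and 12.3 ± 0.672 in untreated cells. KLF2, a factor known from endothelial cells and resting T cells, had 0.399 ± 0.107 RPKM with both agents, 0.591 ± 0.0249 with TGFβ, 0.397 ± 0.0250 with alisertib and 0.529 ± 0.141 in untreated cells, with raw counts of 63 to 140 per library. The places between them changed with TGFβ. KLF4, a reprogramming factor and regulator of epithelial differentiation, ranked the seventh in untreated and in alisertib libraries and the third in both groups with TGFβ, where it had 10.7 ± 0.493 RPKM with both agents and 10.3 ± 0.267 with TGFβ, against 3.26 ± 0.0787 in untreated cells. KLF7, known for axon growth in neurons, stood the ninth in untreated cells, below KLF9 with no overlap of the libraries, and the eighth above KLF9 in the groups with TGFβ. With alisertib alone the KLF7 and KLF9 ranges overlapped, so their order is not resolved there.

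The RPKM of the 10 members summed to 116.8 ± 2.86 with both agents, 111 ± 0.251 with TGFβ, 80.8 ± 0.849 with alisertib and 71.1 ± 1.84 in untreated cells (SD, n = 3 each), and no library of 1 group lay inside the range of another. KLF6 made up 31.1% of that sum with both agents, 30.4% with TGFβ, 40.4% with alisertib and 41.1% in untreated cells. KLF10 made up 27.3% with both agents, 27.1% with TGFβ, 20.6% with alisertib and 17.2% in untreated cells. For KLF4 these shares were 9.15% with both agents, 9.25% with TGFβ, 5.61% with alisertib and 4.59% in untreated cells. The sum is a description of summed levels and was not tested. Neighbours whose ranges overlapped were KLF3 and KLF13 with both agents and with TGFβ; KLF5 and KLF3, KLF13 and KLF11, and KLF11 and KLF4 with alisertib; and KLF5 and KLF3, and KLF13 and KLF11, in untreated cells.

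**Figure D1:**
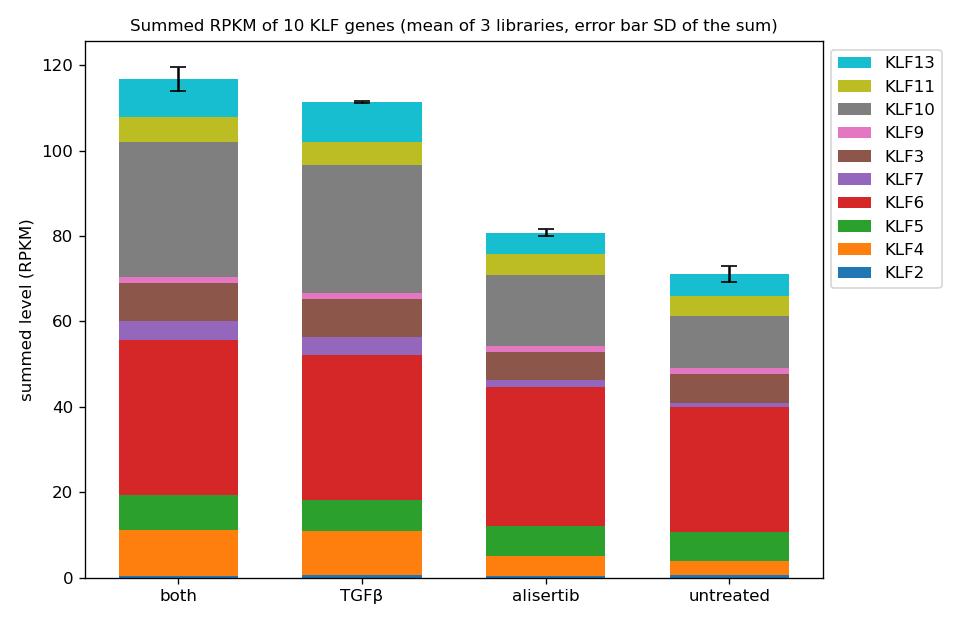
Stacked bars give the mean RPKM of each of the 10 KLF genes in cells with both agents, TGFβ, alisertib and neither, with the SD of the sum over 3 libraries as error bar. The sum was 116.8 RPKM with both agents, 111 with TGFβ, 80.8 with alisertib and 71.1 in untreated cells, and the KLF10 and KLF4 segments are the ones that widen most with TGFβ.

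TGFβ against no treatment asked how the growth factor alone changed the family. KLF7, KLF4, KLF10 and KLF13 rose 3.93-fold, 3.16-fold, 2.46-fold and 1.78-fold, KLF3, KLF11 and KLF6 rose by smaller steps, and KLF9 fell slightly. In edgeR's quasi-likelihood test, adjusted by Benjamini-Hochberg over all tested genes, 7 of the 10 members were called higher (adjusted p under 0.05), where 18.5% of all tested genes were, and 1 was called lower, where 20.1% were. In either direction 8 members were called, against 38.6% of tested genes. The median log2 fold change of the 10 members was 0.34, and that of all tested genes -0.01. Where groups are said not to overlap, this describes the libraries only, and the share of all tested genes without overlap was not computed.

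Among the members that work with acetyltransferases, KLF7 (chr2:207938861-208031991, build hg19) had 39.0, 38.9 and 42.2 CPM in the TGFβ libraries, against 10.1, 10.2 and 10.2 CPM in untreated cells. Every TGFβ library was far above every untreated one, and the 3 untreated libraries were nearly equal, with a coefficient of variation of 0.732%, below the 3.23% that counting error alone gives at their lowest count of 956. Its log2 fold change was 1.97 ± 0.06 (SE; adjusted p = 8.33e-12, edgeR). KLF4 (chr9:110247133-110252763) had 37.3, 36.7 and 35.4 CPM with TGFβ, against 11.7, 11.7 and 11.2 CPM in untreated libraries, again without overlap (log2 fold change 1.66 ± 0.06, adjusted p = 1.6e-11). KLF6 (chr10:3818188-3827473) had 206, 209.8 and 207 CPM with TGFβ, against 176, 182 and 179.9 CPM in untreated cells, a rise of 0.21 ± 0.04 on the log2 scale (adjusted p = 0.000523). The groups did not overlap, although the change was small. KLF5 (chr13:73629114-73651676), which drives proliferation in basal and intestinal epithelium, had 27.0, 28.2 and 30.0 CPM with TGFβ, against 26.8, 25.7 and 27.3 CPM in untreated cells, and the groups overlapped (log2 fold change 0.09 ± 0.06, adjusted p = 0.219); with GC and length offsets it was called, at 0.16 (adjusted p = 0.0119). KLF2 (chr19:16435628-16438685) had 1.13, 1.22 and 1.22 CPM with TGFβ, against 0.75, 1.15 and 1.30 CPM in untreated cells. Its groups overlapped and the estimate was imprecise (0.16 ± 0.21, adjusted p = 0.604); the low untreated library was library 1, 1 of the 4 that stood apart, and without those 4 the log2 fold change was -0.06.

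KLF10 (chr8:103661007-103668130), the TGFβ-inducible early gene that was described as a repressor of SMAD7 transcription, had 121, 119.5 and 122 CPM in the TGFβ libraries, against 47.4, 47.6 and 52.2 CPM in untreated cells. The 3 TGFβ libraries lay within a few CPM of each other and well above all untreated ones (log2 fold change 1.30 ± 0.05, adjusted p = 3.66e-11, edgeR). Its closest relative KLF11 (chr2:10182976-10194963) rose only by 0.26 ± 0.07 on the log2 scale (adjusted p = 0.00595), with 25.1, 24.6 and 24.7 CPM with TGFβ, against 21.1, 19.3 and 21.9 CPM in untreated cells. The difference between the responses of KLF10 and KLF11 was not tested. KLF13 (chr15:31619058-31727868), known as a late activator of the chemokine gene CCL5 in T cells, had 83.4, 81.1 and 75.9 CPM with TGFβ, against 38.7, 47.6 and 48.5 CPM in untreated cells (log2 fold change 0.83 ± 0.08, adjusted p = 1.5e-06). Groups did not overlap, and the lowest library of each group was again 1 of the 4 that stood apart: KLF13 lay 0.08, in library 6, and 0.21, in library 1, below its group mean on the log2 scale, and its GC content of 57.6% was at the 81.1th percentile of tested genes. Over 7 other settings, among them leaving those libraries out, its log2 fold change was 0.67 to 0.84 and it stayed called.

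KLF9 (chr9:72999503-73029540), a glucocorticoid-induced and thyroid-hormone-induced factor, was the member that fell: 6.24, 6.03 and 6.74 CPM with TGFβ, against 7.10, 7.67 and 7.95 CPM in untreated cells. The groups did not overlap, but the step was small (-0.26 ± 0.09, adjusted p = 0.037) and the call was lost in 6 of 12 fits that left out 1 library each, those without library 2, 3, 4, 5, 8 or 12 (adjusted p = 0.135 at most). It was also lost with no filter on low counts (adjusted p = 0.0609), when only these 2 groups were fitted (0.0634) and with GC and length offsets (0.0753). KLF3 (chr4:38665817-38702663), the CtBP-bound repressor, had 55.1, 56.6 and 57.6 CPM with TGFβ, against 43.1, 40.3 and 43.3 CPM in untreated cells, without overlap (0.42 ± 0.05, adjusted p = 1.96e-05). The library kit does not mark strand, so reads of overlapping genes cannot be assigned for certain. KLF3, KLF7, KLF11 and KLF13 overlap annotated neighbours, whose own counts reached at most 1.04% of the member's count (KLF7-IT1 inside KLF7). How reads over shared bases were counted is not given in the sources used, so these counts set no limit on such reads. The pseudogene copies of members in the table had at most 6 counts in any library.

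**Figure D2:**
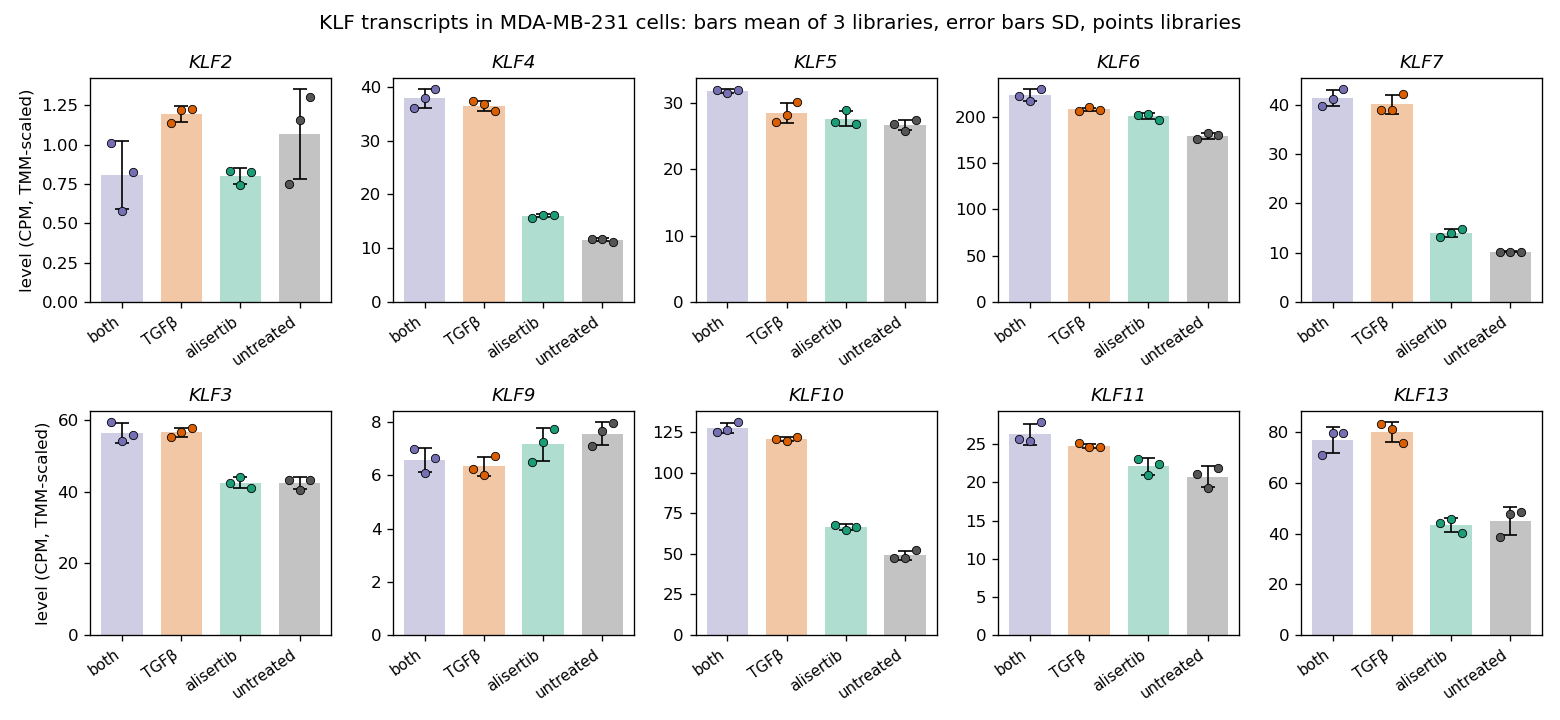
Each panel gives 1 KLF gene, with CPM (scaled by TMM factors) on the vertical axis from 0, and bars for cells with both agents, TGFβ, alisertib and neither (mean of 3 libraries, error bar SD, points libraries). KLF7, KLF4 and KLF10 show 2 separate heights with and without TGFβ and a smaller step for alisertib alone, for example 39.0, 38.9 and 42.2 CPM of KLF7 with TGFβ, 13.2, 13.9 and 14.7 with alisertib and 10.1, 10.2 and 10.2 in untreated cells.

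Alisertib against no treatment asked what the drug did without TGFβ. KLF4, KLF7, KLF10 and KLF6 rose 1.39-fold, 1.37-fold, 1.35-fold and 1.12-fold, and the other 6 members were not called. Thus 4 of 10 members were called higher, where 3.55% of tested genes were, and 0 were called lower, where 3.19% were; 4 were called in either direction, against 6.74% of all genes. The median log2 fold change was 0.07 for the members and -0.01 for all tested genes.

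KLF4 had 15.7, 16.2 and 16.3 CPM with alisertib, against 11.7, 11.7 and 11.2 CPM in untreated cells (log2 fold change 0.47 ± 0.06, adjusted p = 0.000201, edgeR). KLF7 had 13.2, 13.9 and 14.7 CPM with alisertib, against 10.1, 10.2 and 10.2 CPM in untreated cells (0.46 ± 0.06, adjusted p = 0.000573). KLF10 had 68.0, 64.5 and 66.8 CPM with alisertib, against 47.4, 47.6 and 52.2 CPM in untreated cells (0.44 ± 0.05, adjusted p = 0.000108). In all 3 genes every alisertib library was above every untreated one. This is a description, as the share of all tested genes without overlap was not computed. These genes kept their calls in all 12 fits that left out 1 library each. KLF6 had 202, 203 and 197 CPM with alisertib, against 176, 182 and 179.9 CPM in untreated cells (0.16 ± 0.04, adjusted p = 0.0246), also without overlap. Its call was lost without library 7 or library 8, when only these 2 groups were fitted (adjusted p = 0.145), and with no filter on low counts (adjusted p = 0.0598). KLF2 had 0.833, 0.744 and 0.829 CPM with alisertib, against 0.75, 1.15 and 1.30 CPM in untreated cells, which overlapped in library 1 (-0.42 ± 0.22, adjusted p = 0.324). Without the 4 libraries that stood apart it was called lower, at -0.63 with adjusted p = 0.0414. That setting dropped library 1, the lowest untreated one.
The remaining members had log2 fold changes between -0.08 (KLF9) and 0.09 (KLF11) with alisertib, their groups overlapped, and none was called.

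Cells with both agents against untreated cells gave nearly the picture of TGFβ alone. KLF7 rose 4.06-fold, KLF4 3.28-fold, KLF10 2.60-fold and KLF13 1.71-fold, and KLF3, KLF11, KLF6 and KLF5 rose as well. So 8 members were called higher, where 19.4% of tested genes were, and 0 lower, where 20.3% were; in either direction it was 8 of 10, against 39.7%. The median log2 fold change was 0.38 for the members and 0.00 for all tested genes. KLF5 had 31.9, 31.4 and 31.9 CPM with both agents, against 26.8, 25.7 and 27.3 CPM in untreated cells, without overlap (0.25 ± 0.06, adjusted p = 0.00255, edgeR). KLF9 had 6.98, 6.11 and 6.64 CPM with both agents, against 7.10, 7.67 and 7.95 CPM in untreated cells, which did not overlap but was not called (-0.20 ± 0.09, adjusted p = 0.0911). KLF2 had 1.01, 0.581 and 0.824 CPM with both agents, against 0.75, 1.15 and 1.30 CPM in untreated cells. The groups overlapped, through the high library 10 and the low library 1, both among those that stood apart (-0.41 ± 0.22, adjusted p = 0.158). KLF2 lay 0.46 below its group mean in library 1 and 0.36 above it in library 10 on the log2 scale. These moves were opposite. The GC content of KLF2 was 65.2%, at the 97.3th percentile of tested genes, and the cause of the moves was not tested. Without the 4 libraries that stood apart, KLF2 was called lower at -0.80 (adjusted p = 0.00479) and KLF9 at -0.29 (adjusted p = 0.0102). For both genes that setting dropped the highest library with both agents and the lowest untreated one. KLF2 was also called with GC and length offsets (-0.62, adjusted p = 0.0392), and KLF9 with a covariate for the 4 libraries (adjusted p = 0.0354).

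The TGFβ effect was also measured within alisertib-treated cells, where both agents against alisertib share no library with TGFβ against no treatment. KLF7 rose 2.96-fold, KLF4 2.36-fold, KLF10 1.92-fold and KLF13 1.77-fold. Again 8 members were called higher, where 19.4% of tested genes were, and 0 lower, where 19.0% were (38.4% in either direction); the median log2 fold change was 0.33 for the members and 0.01 for all tested genes. All 10 members had the same sign in the pair of TGFβ comparisons, and 7 were called in the same direction in both. The share of all tested genes that did so was not computed, so these counts describe the members only. KLF2 shared its sign through a log2 fold change of 0.0051 ± 0.22 with alisertib present. That sign turned in 5 of 12 fits that left out 1 library and in 3 of 7 other settings. KLF13 had 70.9, 79.8 and 79.8 CPM with both agents, against 44.4, 45.7 and 40.4 CPM with alisertib, and its log2 fold changes were 0.82 ± 0.08 with alisertib present and 0.83 ± 0.08 without. KLF3 gave 0.41 ± 0.05 with alisertib present and 0.42 ± 0.05 without, from 59.3, 54.0 and 55.8 CPM with both agents, against 42.3, 44.1 and 41.0 CPM with alisertib. KLF13 and KLF3 thus had near-equal TGFβ effects in both backgrounds. The log2 fold change of KLF7 was 1.56 ± 0.06 with alisertib present and 1.97 ± 0.06 without, that of KLF4 1.24 ± 0.06 with and 1.66 ± 0.06 without, and that of KLF10 0.94 ± 0.05 with and 1.30 ± 0.05 without. KLF5, KLF6 and KLF11 had log2 fold changes of 0.20, 0.16 and 0.25, and all 3 lost their call without library 12 (adjusted p = 0.0584, 0.0554 and 0.0563), which left 5 members called. KLF5 also lost it without library 7 or library 9.

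Both agents against TGFβ alone asked what alisertib did where TGFβ was present. Here 0 members were called in any direction by edgeR or by DESeq2, against 2.08% of all tested genes in either direction, 1.19% higher and 0.890% lower. At an unadjusted p under 0.05 there were 3: KLF2 lower and KLF5 and KLF6 higher. The share of all genes at that looser threshold was not computed, so the shares above do not apply to it. KLF4 had 36.0, 38.0 and 39.5 CPM with both agents, against 37.3, 36.7 and 35.4 CPM with TGFβ, and the groups overlapped (log2 fold change 0.05 ± 0.05). KLF7 had 39.8, 41.1 and 43.1 CPM with both agents, against 39.0, 38.9 and 42.2 CPM with TGFβ, and overlapped too (0.05 ± 0.06). KLF10 had 125, 126 and 131 CPM with both agents, against 121, 119.5 and 122 CPM with TGFβ, which did not overlap but was not called (0.08 ± 0.05, adjusted p = 0.568). KLF5 had 31.9, 31.4 and 31.9 CPM with both agents, against 27.0, 28.2 and 30.0 CPM with TGFβ, also without overlap (0.16 ± 0.06, adjusted p = 0.22). KLF6 had 223, 217 and 229.7 CPM with both agents, against 206, 209.8 and 207 CPM with TGFβ, and every library with both agents was the higher (0.10 ± 0.04, adjusted p = 0.244). For KLF2 all libraries with both agents were below those with TGFβ (-0.57 ± 0.22, adjusted p = 0.258). Without the 4 libraries that stood apart 2 members were called, KLF2 (-0.74, adjusted p = 0.0472) and KLF5 (adjusted p = 0.0277), where 1434 of 20711 tested genes were. For KLF2 that setting dropped library 10, the highest with both agents. With a covariate for those 4 libraries KLF5 and KLF6 were called, where 1820 of 20571 tested genes were.

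**Figure D3:**
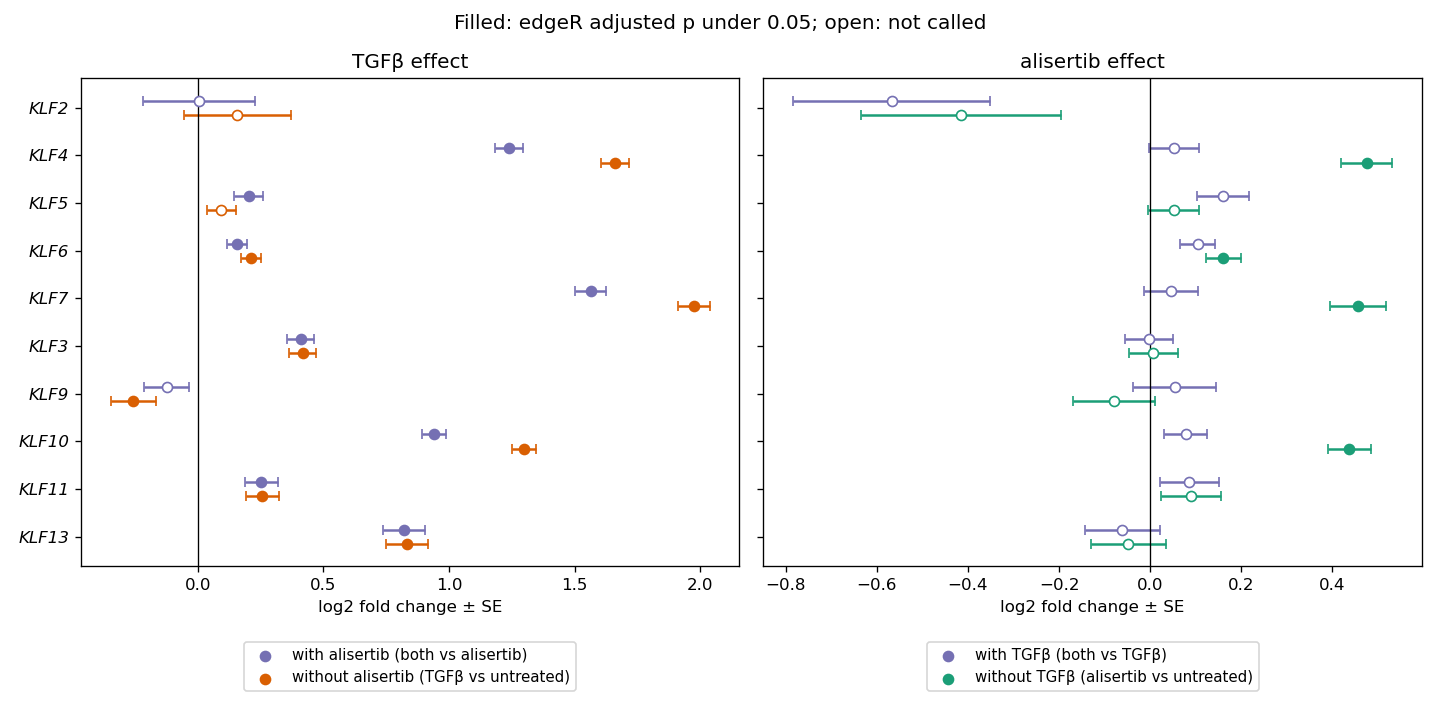
Log2 fold changes ± SE of the 10 KLF genes for TGFβ (left panel, with alisertib present and absent) and for alisertib (right panel, with TGFβ present and absent), filled where the adjusted p was under 0.05. KLF4, KLF7 and KLF10 sit to the left in the presence of the other agent, for example 0.05 against 0.47 for alisertib on KLF4. The shift is the same difference in either panel, so the panels are not separate results. KLF3, KLF11 and KLF13 nearly coincide.

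Whether the response to 1 agent depended on the other was tested by the interaction, which subtracts the log2 fold change for alisertib in cells without TGFβ from that in cells with it. KLF4 and KLF10 were called, with log2 differences of -0.42 ± 0.08 (adjusted p = 0.0386) and -0.36 ± 0.07 (adjusted p = 0.0408, edgeR quasi-likelihood test). KLF7 had nearly the same difference, -0.41 ± 0.09, and missed the threshold (adjusted p = 0.0696). For KLF3 and KLF13 it was -0.01 ± 0.08 and -0.01 ± 0.12. Thus 2 of 10 members were called lower, where 0.165% of tested genes were, and 0 higher, where 0.117% were (0.282% in either direction); the median was -0.03 for the members and 0.01 for all tested genes. All 3 genes had higher alisertib libraries in cells without TGFβ, while with TGFβ present KLF4 and KLF7 overlapped and KLF10 was only slightly higher. The calls are near the threshold: leaving out 1 library at a time gave 0 to 3 called members, KLF4 was called in 2 of 12 such fits (without library 1 or 12) and KLF10 in 2 (without library 1 or 3), and their highest adjusted p-values were 0.148 and 0.146. The direction was negative in all of these fits, and with DESeq2, with a covariate for the 4 libraries that stood apart, without them, or with GC and length offsets, all 3 genes were called.

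**Figure D4:**
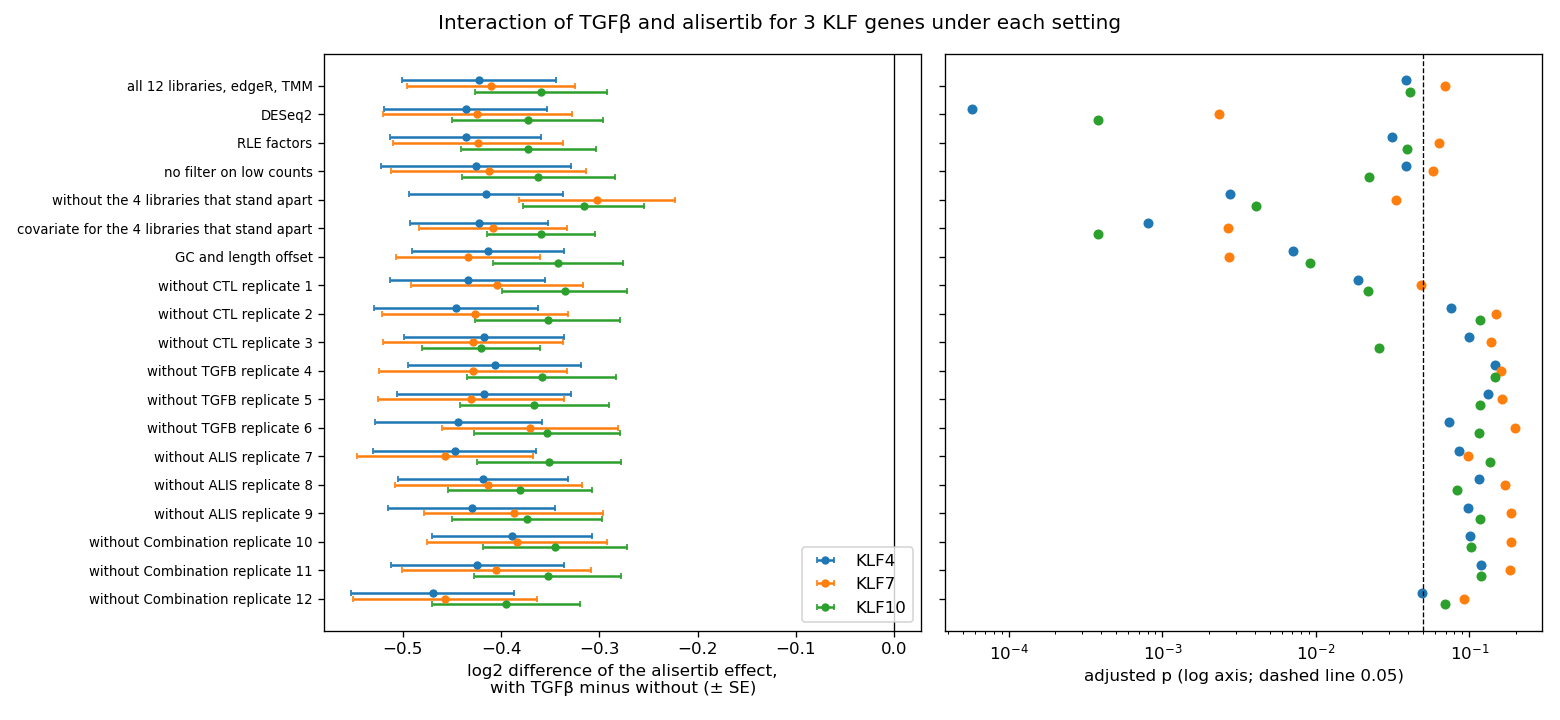
For KLF4, KLF7 and KLF10, the left panel gives the log2 difference of the alisertib effect (with TGFβ minus without, ± SE) under each setting, and the right panel its adjusted p on a log axis with a dashed line at 0.05. The differences stay between -0.47 and -0.30, while the adjusted p-values cross the line when single libraries are left out, up to 0.148 for KLF4 and 0.198 for KLF7.

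Of the 7 KLF genes outside the 10 members (KLF1, KLF8, KLF12, KLF14, KLF15, KLF16 and KLF17), 5 were tested, and with TGFβ 2 were called lower and 0 higher. Over all tested genes 20.1% were called lower and 38.6% in either direction, so 2 of 5 is near the background. KLF16 had 6.57 ± 0.769 RPKM with both agents, 6.49 ± 0.475 with TGFβ, 5.47 ± 0.746 with alisertib and 5.43 ± 1.15 in untreated cells, a level like that of KLF11 and KLF13 in untreated cells, and was not called with TGFβ. KLF15, known from muscle and liver metabolism and induced by glucocorticoids, had 0.209 ± 0.0203 CPM with both agents, 0.174 ± 0.0476 with TGFβ, 1.09 ± 0.224 with alisertib and 1.56 ± 0.313 in untreated cells (SD, n = 3 each), a fall of -3.16 ± 0.25 on the log2 scale with TGFβ (adjusted p = 1.11e-07). KLF12, a CtBP-binding repressor like KLF3, had 17.4 ± 0.506 CPM with both agents, 16.0 ± 0.211 with TGFβ, 25.5 ± 1.81 with alisertib and 24.8 ± 1.35 in untreated cells (-0.63 ± 0.07 with TGFβ, adjusted p = 2.78e-06). KLF3 and KLF12, both CtBP-bound, thus moved in opposite directions. KLF1 and KLF14 had at most 10 counts in a library. Of the 9 SP genes, the nearest relatives of the KLFs, 6 were tested and 0 were called with TGFβ. SP1, the ubiquitous GC-box activator, was lower with alisertib (124 ± 2.97 CPM with alisertib against 143 ± 5.74 CPM in untreated cells, -0.21 ± 0.05, adjusted p = 0.0142), and its call was lost without library 7 or library 8.

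Partners and regulators of the KLFs moved in both directions with TGFβ. The counts of the lists are to be read against all tested genes, of which 18.5% were called higher, 20.1% lower and 38.6% in either direction with TGFβ, and 3.55% higher and 3.19% lower with alisertib. Of 10 corepressors and histone deacetylases, 2 were called higher (HDAC1 0.20 ± 0.04 and CTBP2 0.23 ± 0.06 on the log2 scale) and 3 lower, among them SAP30, a SIN3 complex subunit, at -0.46 ± 0.06, and HDAC2 at -0.24 ± 0.07, whose call was lost without library 1, 4 or 5. The median of the list was -0.04, and 5 of 10 called is not far from the background. Of 4 acetyltransferases, 0 were higher and 1 was lower: KAT2B (PCAF) had 22.1 ± 1.63 CPM with TGFβ, against 44.7 ± 2.01 CPM in untreated cells (-1.01 ± 0.08, adjusted p = 1.03e-07). In the kinase cascade through ERK5 to MEF2, which induces KLF2 and KLF4 in endothelial cells, 3 of 7 were higher and 0 lower: MAP3K2 (0.79 ± 0.07), MAPK7, which encodes ERK5 itself (0.65 ± 0.14), and MEF2D (0.41 ± 0.08). KLF4 rose with them and KLF2 was not called.
Of 10 ubiquitin ligases and deubiquitinases described for KLF proteins, 4 were higher and 0 lower with TGFβ, in either direction about the background share. FBXO32 had 108 ± 5.26 CPM with TGFβ, against 33.2 ± 2.21 CPM in untreated cells (1.71 ± 0.06, adjusted p = 1.24e-11), SMURF2 rose by 1.17 ± 0.06 and SMURF1 by 0.97 ± 0.04, and VHL by 0.31 ± 0.05. SMURF1 and SMURF2 also target TGFβ receptors and SMAD proteins. With alisertib alone, the corepressor, ERK5 and acetyltransferase lists had 0, 0 and 0 members called higher and 0, 0 and 1 lower (KAT2B -0.28, adjusted p = 0.044, kept in 3 of 12 fits that left out 1 library), and the ubiquitin list had 2 higher, FBXO32 (0.72 ± 0.06) and SMURF2 (0.31 ± 0.06).

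Described KLF target genes were divided. Of 18, 16 were tested, and with TGFβ 8 were called higher and 4 lower, with a median log2 fold change of 0.09. Over all tested genes 18.5% were called higher and 20.1% lower. PLAU, the urokinase gene, had 2909 ± 82.8 CPM with TGFβ, against 526 ± 24.1 CPM in untreated cells (2.47 ± 0.06, adjusted p = 5.39e-13). SMAD7, the inhibitory SMAD that KLF10 was described to repress, had 51.3 ± 1.63 CPM with TGFβ, against 10.9 ± 0.163 CPM in untreated cells (2.24 ± 0.06, adjusted p = 1.5e-12), so SMAD7 and KLF10 were both higher at 48 h. COL1A1 rose by 4.57 ± 0.19 on the log2 scale. THBD, the thrombomodulin gene that KLF2 and KLF4 activate in endothelium, had 17.5 ± 0.449 CPM with TGFβ, against 58.2 ± 0.788 CPM in untreated cells (-1.73 ± 0.05, adjusted p = 2.91e-12), while KLF4 rose. Several of these genes are also known as TGFβ targets. With alisertib 1 was higher (CCND1 0.18 ± 0.04) and 2 were lower (THBD -0.22 ± 0.05 and PTGES -0.43 ± 0.11). These 3 calls were lost without library 8, that of CCND1 also without library 2 or 7, and the PTGES call in 7 of 12 such fits.

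Of 8 glucocorticoid response genes, 7 were tested, with 4 higher and 2 lower with TGFβ, where 18.5% and 20.1% of all tested genes were. SGK1 (1.59 ± 0.08), DUSP1 (1.39 ± 0.08) and MT2A (1.40 ± 0.21) rose and FKBP5 fell by 0.74 on the log2 scale (SE 0.07) (adjusted p = 5.02e-07). KLF9 fell as FKBP5 did, and SGK1, DUSP1 and MT2A ran the other way. With alisertib DUSP1 (0.75 ± 0.08) and SGK1 (0.67 ± 0.08) were higher and FKBP5 lower (-0.31 ± 0.07, lost without library 8). Of 12 immediate early genes outside the KLF and AP-1 groups, 11 were tested, with 5 higher, among them HES1 (1.69 ± 0.11) and IER2 (0.80 ± 0.08), and 3 lower, among them ATF3 (-0.99 ± 0.08) and IER5 (-0.58 ± 0.05), with TGFβ. With alisertib 2 were higher, ATF3 (0.39 ± 0.08) and MYC (0.20 ± 0.05, lost without library 3, 7 or 8), and 0 lower. ATF3 was thus higher with alisertib and lower with TGFβ, unlike KLF4, KLF7 and KLF10, which were higher with either agent.

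For each member, the gene with the most similar profile of log2 CPM over the 12 libraries was sought among 10430 named protein-coding genes that averaged 5 CPM or more. The pairs were KLF7 with ADAM12, a metalloprotease (Pearson's r 0.998), KLF13 with BMP1, a procollagen protease (0.998), KLF4 with MARCH4, a ubiquitin ligase (0.997), and KLF10 with CST1, a cystatin (0.997). KLF3 paired with SPCS3 (0.993), KLF6 with LAPTM5 (0.981), KLF11 with SH2B3 (0.957), KLF5 with SERINC1 (0.942), KLF9 with ARRDC3 (0.910) and KLF2 with IKZF4 (0.821). The values are the highest of many pairs from the same 12 libraries in 4 groups, so they describe likeness of pattern only.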

How the data were processed

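RNA was sequenced from 12 libraries of MDA-MB-231 cells, 3 for each of 4 treatments. The miRNeasy kit served for total RNA and the unstranded TruSeq RNA v2 kit for libraries, per the labels' protocols. The submitters' processing notes name bcl2fastq, TopHat, Subread, featureCounts and the build hg19; their versions and settings are not given in the sources used here. Reads per gene were deposited by the authors as whole-number counts without normalisation, next to RPKM values that the authors derived from those counts. Per the file headers, gene coordinates and lengths come with the same table.

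The deposited counts entered edgeR 4.0.16 (R 4.3.3) unchanged: filterByExpr kept 20571 genes, libraries were scaled by TMM factors, and all 12 libraries entered 1 robust quasi-likelihood fit with 8 residual degrees of freedom. Adjusted p-values (Benjamini-Hochberg) run over all tested genes, and a gene was called at an adjusted p under 0.05. CPM and RPKM in the text were computed from the counts with TMM library sizes and the table's gene length. The authors' deposited RPKM values were 0.874 to 0.940 of these and served as the alternative unit. With totals of 93701658 to 120619368 counts, KLF2 had 63 to 140 counts per library, KLF9 643 to 814, and every other member at least 956, so counting error alone gives a coefficient of variation of up to 12.6% for KLF2, 3.94% for KLF9 and 3.23% for the others.

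The members, gene lists and tests were chosen with earlier results of these data known, as were the 4 libraries that stood apart. Named genes are the 10 members and, of each list, up to 4 called genes with the lowest p for TGFβ and up to 3 for alisertib or the interaction; the gene most like each member was taken by Pearson's r of log2 CPM. GC content came from a newer annotation for 19649 tested genes. Alternatives were DESeq2 1.42.0, RLE factors, no filter on low counts, only the groups compared, the 4 libraries left out or given a covariate, GC and length offsets, and each library left out. For genes of the lists these alternatives were added after seeing the data.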

Additional observations from a re-analysis of the deposited data

Results flagged for a closer look

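The alisertib effect on the log2 scale differed between cells with and without TGFβ, by the interaction test of edgeR, in 2 KLF genes and in 3 genes of the lists. Over all tested genes, 58 of 20571 (0.282%) were called in this test. For KLF4 the log2 difference (effect with TGFβ minus effect without) was -0.42, with alisertib effects of 0.05 with TGFβ present and 0.47 without (adjusted p = 0.0386). For KLF10 it was -0.36, from effects of 0.08 and 0.44 (adjusted p = 0.0408). The calls of KLF4 and KLF10 were each lost in 10 of 12 fits that left out 1 library. FBXO32, a ubiquitin ligase of muscle atrophy, gave -0.41 (adjusted p = 0.0488), with 135 ± 2.22 CPM with both agents and 108 ± 5.26 with TGFβ, and 54.8 ± 1.85 with alisertib and 33.2 ± 2.21 in untreated cells. Its call was lost with RLE factors (adjusted p = 0.0507) and in 11 of 12 fits that left out 1 library. The FBXO32 difference is one of fold changes only. In CPM its step with alisertib was not smaller with TGFβ (108 to 135) than without (33.2 to 54.8). SGK1, a glucocorticoid-induced kinase, gave -0.62 (adjusted p = 0.0258), with 48.1 ± 0.608 CPM with both agents and 46.4 ± 1.75 with TGFβ, and 24.6 ± 1.52 with alisertib and 15.4 ± 1.77 in untreated cells; its call was lost in 10 of 12 such fits. THBD gave 0.46 (adjusted p = 0.0111), with 20.6 ± 0.639 CPM with both agents and 17.5 ± 0.449 with TGFβ, and 49.9 ± 0.56 with alisertib and 58.2 ± 0.788 in untreated cells; its call was lost without library 4, 5, 7 or 9.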

How the results depend on the processing

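Counts of called members kept within 1.5 times of the reported ones except in 3 comparisons. Both agents against TGFβ gave 2 called members, in place of 0, without the 4 libraries that stood apart and 2 with a covariate for them. Leaving out 1 library each, both agents against alisertib gave 5 to 8 and the interaction 0 to 3. No call of a member turned its direction. Uncalled values did: KLF2 with TGFβ was -0.059 without the 4 libraries and -0.11 with GC and length offsets, and KLF2 with both agents against alisertib was -0.00052 with no filter, -0.17 without the 4 libraries and -0.34 with the offsets. KLF13 with alisertib was 0.028 with the offsets, and the interaction was 0.044 for KLF13 without the 4 libraries and 0.0056 for KLF11 with the offsets. Leaving out 1 library, ranges that crossed 0 were -0.039 to 0.32 for KLF2 with TGFβ, -0.022 to 0.038 for KLF3 and -0.14 to 0.020 for KLF13 with alisertib, -0.042 to 0.028 for KLF3 with both agents against TGFβ, and -0.19 to 0.19 for KLF2 with both agents against alisertib. For the interaction they were -0.35 to 0.044 (KLF2), -0.052 to 0.022 (KLF3), -0.064 to 0.032 (KLF11) and -0.084 to 0.083 (KLF13). Of 1130 member values under alternatives, 1041 kept direction and side of the threshold, 38 lost a call, 16 gained one and 35 turned sign; the cause was not tested. Over all genes, alisertib against untreated gave 1387 calls, 5073 without the 4 libraries, 4057 with the covariate, 3596 with the offsets and 623 when only those groups were fitted. The interaction gave 58, and 744, 382 and 337 under the first 3 of those settings, 188 with DESeq2 and 105 with no filter. Both agents against TGFβ gave 428, and 1434, 1820 and 1674 under those 3 settings, and 692 with DESeq2. Leaving out 1 library each, these counts over all genes were 718 (without library 7) to 2598 (without library 1) for alisertib, 19 (without library 9) to 166 (without library 1) for the interaction and 153 (without library 4) to 754 (without library 1) for both agents against TGFβ. When only those 2 groups were fitted, the alisertib calls of SP1, KAT2B, CCND1, THBD, PTGES, FKBP5 and MYC were lost (adjusted p = 0.0636 to 0.126); that of KAT2B was also lost with RLE factors and that of PTGES with no filter. The authors' RPKM moved 34 of 40 group means of members by more than 1 SD, all downwards. The shift was not equal between groups. The authors' denominator was 1.10 to 1.11 times the library total in every library. TMM factors were 0.959 to 0.980 in libraries with TGFβ and 1.01 to 1.05 in those without, so rises with TGFβ are smaller in the authors' unit. KLF6 had 29.4 to 29.8 of the authors' RPKM with TGFβ and 30.0 to 31.1 with alisertib, the reverse of the order reported above. No paired analysis was possible because replicate numbers are not shared between groups.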
